A study of Mus musculus with 24 samples.

Results

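Freshly isolated type 2 alveolar epithelial cells (AEC2s) of Krt8-/- mice were compared with those of Krt8+/+ mice by RNA-Seq. The series holds 24 libraries in 8 groups of genotype and day of 2D culture, and the 6 libraries of day 0, taken from the cells as isolated and before any culture, were the ones compared, 3 of each genotype. A library belonged to the comparison if its column of the deposited table of raw counts was named for day 0. The date in that name, which is also the batch in the labels, was read as the date of isolation. It tied each Krt8-/- library to the Krt8+/+ library of the same date. Isolations are numbered 1 to 3 in the order of the dates. The Krt8-/- mice lack Krt8 in every cell of the body, so the lung from which the AEC2s came was also without keratin 8 outside the alveolar epithelium. The sources used here do not give the strain, the age, the number of mice pooled per isolation, or the sorting steps. The question asked was whether AEC2s that have never been injured or cultured differ by genotype, and which other lung cells came along with them.

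AEC2s make surfactant, which keeps the airspaces open, and they give rise to the flat AEC1s that line most of the alveolus. Keratin 8 is a type II intermediate filament protein that assembles with type I partners such as keratin 18 into the filament network of simple epithelia, and its gene is switched on strongly when AEC2s enter the transitional state on the way to AEC1s. Preparations of AEC2s from mouse lung can carry cells of the small airways, which secrete club cell proteins and antimicrobial proteins, as well as leukocytes, fibroblasts and endothelial cells. In RNA from a whole isolate, fewer cells of a type and less RNA per cell cannot be told apart.

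The 6 libraries held between 12065192 and 19483386 counts each. Levels are given as CPM, the counts of a gene per 1000000 counts of the genes tested, after TMM scaling, so that they compare a gene between libraries and not 1 gene with another. The cells carried the label's identity: Sftpc, the surfactant protein C gene that defines AEC2s, took 11.9% to 16.9% of all counts, and its level was 147526, 199103, and 213319 CPM in the Krt8+/+ libraries of isolations 1, 2, and 3 and 171167, 168664, and 220906 CPM in the Krt8-/- libraries. Across genes, log2 levels of the 2 libraries of an isolation correlated at 0.972 to 0.977, those of Krt8+/+ libraries among themselves at 0.954 to 0.970, and those of Krt8-/- libraries among themselves at 0.960 to 0.978. Sex-linked transcripts differed between the genotypes in isolation 1. Summed Y-linked genes read 0.127 CPM in the Krt8+/+ library and 191 CPM in the Krt8-/- library of isolation 1, 0 in both libraries of isolation 2, and 179.7 and 174 CPM in isolation 3. Xist, the RNA of the inactive X chromosome, read 79.5 CPM in the Krt8+/+ and 11.3 CPM in the Krt8-/- library of isolation 1, 42.7 and 57.6 CPM in isolation 2, and 1.55 and 2.24 CPM in isolation 3. The Krt8-/- library of isolation 1 thus held both Y-linked transcripts and more Xist than either library of isolation 3. Counts of calls were therefore also taken without isolation 1, its culture libraries left out as well. No pair of libraries in a group was a duplicate. Separate dates stand behind the replicates. In the main fit the spread behind a p value is pooled over all 8 groups, culture days included, and ignores the pairing. It is therefore not the scatter between the fresh isolations alone.

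Krt8 itself was measured first. Its level was 485, 552, and 533 CPM in the Krt8+/+ libraries and 36.4, 31.1, and 21.2 CPM in the Krt8-/- libraries. The groups did not overlap, and the Krt8-/- mean was 5.65% of the Krt8+/+ mean (29.6 ± 7.74 against 523 ± 34.6 CPM, SD, n = 3). In edgeR's quasi-likelihood test the log2 difference was -4.15 (SE 0.24, Benjamini-Hochberg adjusted p = 2.72e-09). The counts left in Krt8-/- AEC2s summed to 1087 reads over the 3 libraries, and which part of the transcript they cover was not analysed here. Krt8 lies at chr15:101996698-102004482 on the minus strand (GRCm38), where its gene model overlaps Gm36026, a long noncoding RNA on the other strand. Krt8-ps, a processed pseudogene of Krt8 at chr7:23357125-23358069 within Nlrp4e, fell with it, from 14.7, 19.9, and 18.0 CPM to 1.3, 0.911, and 1.00 CPM (log2 difference -4.00, SE 0.35, adjusted p = 1.81e-06 by edgeR).

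The coding part of Krt8 and the pseudogene transcript are alike enough to share reads. Of 941 aligned bases 928 were identical (98.6%), with 13 mismatches, and the longest run without a mismatch was 299 bases. A stretch that holds 6 of the mismatches is shown because such bases are what lets a read be assigned to 1 of the genes. It comes from GENCODE M21 transcripts (GRCm38), from the coding part of Krt8 at chr15:101998470-101998876 with an intron removed and from the pseudogene at chr7:23357895-23358044, each written 5′ to 3′ on its own strand over 150 bases. Capitals mark the bases that differ.
Krt8: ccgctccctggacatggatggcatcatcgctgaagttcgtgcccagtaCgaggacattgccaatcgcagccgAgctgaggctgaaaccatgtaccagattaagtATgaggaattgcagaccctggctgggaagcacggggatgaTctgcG
Krt8-ps: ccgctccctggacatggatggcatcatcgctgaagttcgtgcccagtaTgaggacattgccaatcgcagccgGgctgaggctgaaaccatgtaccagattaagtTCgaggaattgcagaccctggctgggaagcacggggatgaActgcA
The sources used here do not say how the authors assigned reads that fit both genes, so the fall of Krt8-ps cannot be told apart from that of Krt8. With the counts of both added together, the log2 difference was -4.14 (SE 0.24, adjusted p = 2.40e-09 by edgeR).

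Of 18046 genes tested, 5 passed an adjusted p of 0.05 (0.0277%), 3 lower (0.0166%) and 2 higher (0.0111%) in Krt8-/- AEC2s. Besides Krt8 and Krt8-ps, the lower gene was Smarcd1, which encodes a subunit of the SWI/SNF chromatin remodeling complex. It read 27.8, 21.1, and 22.5 CPM in Krt8+/+ and 4.61, 3.04, and 2.09 CPM in Krt8-/- AEC2s, with no overlap, and its gene model overlaps 3 predicted genes on the other strand (log2 difference -2.87, SE 0.29, adjusted p = 1.61e-05 by edgeR). Mettl7a2, a member of a family of methyltransferase-like proteins of the endoplasmic reticulum and lipid droplets, rose from 1.21, 3.57, and 4.32 CPM to 78.4, 65.6, and 87.1 CPM, 25.4-fold by the means (log2 difference 4.70, SE 0.67, adjusted p = 0.00623 by edgeR). Chtf18, a subunit of a clamp loader that works at replication forks, rose from 0.127, 0.217, and 0.332 CPM to 1.66, 2.02, and 1.39 CPM (log2 difference 2.95, SE 0.45, adjusted p = 0.00649 by edgeR). That gene was near the limit of detection, with 7 reads in the Krt8+/+ and 61 in the Krt8-/- libraries, and its gene model overlaps Gng13 on the other strand. Leaving out an isolation removed its libraries of every day, culture included, which also lowered the degrees of freedom. It took away calls while the log2 differences stayed of like size. With a single day 0 library of isolation 1 left out, 5 genes passed without the Krt8-/- library and 3 without the Krt8+/+ library. Without isolation 1, 3 genes passed, Krt8, Krt8-ps, and Smarcd1, while Mettl7a2 gave a log2 difference of 4.27 (adjusted p = 0.332) and Chtf18 of 2.59 (adjusted p = 1, both by edgeR). Without isolation 2, 2 genes passed, Krt8 and Krt8-ps, with log2 differences of -2.92 for Smarcd1 and 4.94 for Mettl7a2 (adjusted p = 0.064 for both) and 2.81 for Chtf18 (adjusted p = 0.264, by edgeR). Without isolation 3, 5 genes passed, among them Eno1b and Gm4735 in place of Mettl7a2 (log2 difference 4.97, adjusted p = 0.573) and Chtf18 (log2 difference 3.43, adjusted p = 0.0838, both by edgeR).

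**Figure D1:**
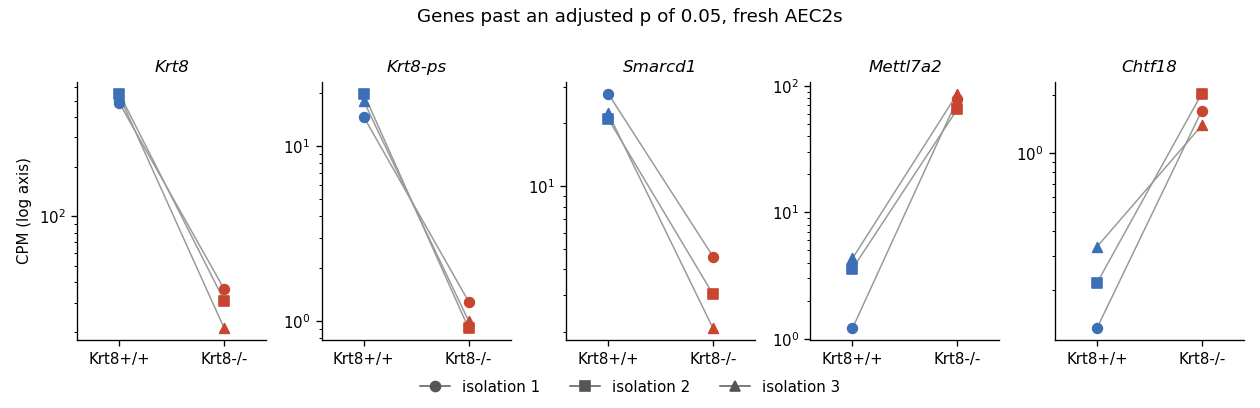
Level in CPM (log axis, a separate scale for each panel) of the 5 genes past an adjusted p of 0.05 in fresh Krt8+/+ (blue) and Krt8-/- (red) AEC2s, with 1 symbol per isolation and a line joining the libraries of the same isolation. Krt8, Krt8-ps, and Smarcd1 are lower and Mettl7a2 and Chtf18 higher in each of the 3 isolations, and in no panel do the genotypes overlap.

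Most other genes sat close to parity. The median log2 difference over all genes tested was -0.004, 479 genes (2.65%) had an unadjusted p under 0.05, 290 higher (1.61%) and 189 lower (1.05%), and 12.1% of genes were higher and 11.9% lower in all 3 isolations. The levels of all 3 Krt8-/- libraries lay above all 3 Krt8+/+ libraries for 3.14% of genes and below them for 3.74%. When the 6 libraries were fitted alone with the isolation as a replicate block, 14 of 15111 genes passed (0.0926%), 10 of them higher (0.0662%). Those were Krt8, Krt8-ps, Smarcd1, and Calcoco1 among the lower and Mettl7a2, Mettl7a3, Aqp5, Reg3g, Dmbt1, Itln1, Krt15, Igkc, Igha, and Jchain among the higher genes. That fit changed both the libraries and the model. With the block over all 24 libraries the same 5 genes passed as in the main fit. In the 6 libraries without the block 5 passed, with Dmbt1 in place of Chtf18. The adjusted p of Chtf18 by edgeR was 0.0219 with the block over all libraries. In the 6 libraries it was 0.808 without the block and 0.4 with it. Values are given below for the 4 fits where a call depends on them.

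**Figure D2:**
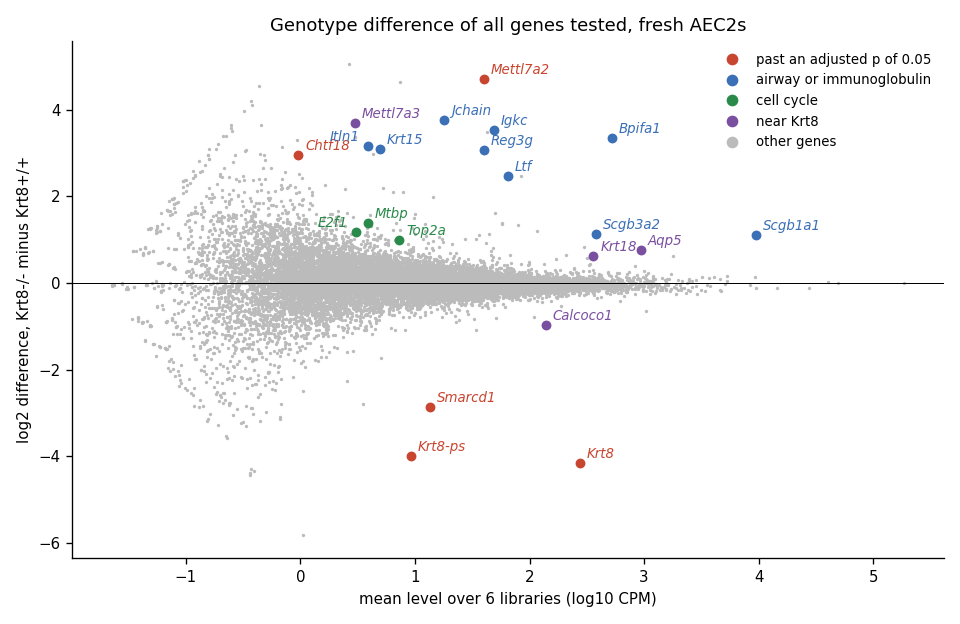
Log2 difference between Krt8-/- and Krt8+/+ AEC2s against the mean level over the 6 libraries (log10 CPM) for the 17526 genes tested that had counts in both groups, with named genes in color. The genes with the highest levels lie near 0, and the genes of airway secretion and of antibody-secreting cells form a scatter above the bulk.

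Several of the genes that differed lie near Krt8 itself. Of the 142 genes tested whose body lies within 5 Mb of Krt8, Krt8 included, 15 had an unadjusted p under 0.05 (10.6%), 8 higher and 7 lower, and 3 passed the adjusted threshold. Within 10 Mb the count was 18 of 165 (10.9%), on the rest of chromosome 15 beyond 20 Mb it was 9 of 445 (2.02%), and on the other chromosomes it was 450 of 17330 (2.60%). The windows were chosen after these values were seen and carry no test. Smarcd1 ends 2.28 Mb and Mettl7a2 ends 1.64 Mb from Krt8, both toward lower coordinates.

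Krt18, whose gene starts 0.024 Mb from that of Krt8 and whose product is the usual filament partner of keratin 8, read 244, 299, and 312 CPM in Krt8+/+ and 437, 445, and 433 CPM in Krt8-/- AEC2s. Every Krt8-/- library was above every Krt8+/+ library, but the log2 difference of 0.62 (SE 0.23) had an unadjusted p of 0.0148 and an adjusted p of 1 by edgeR. Aqp5, the water channel of AEC1s, lies 2.40 Mb away and read 550.4, 692, and 854 CPM against 1117, 1199.7, and 1226 CPM, 1.69-fold higher by the means. Its adjusted p by edgeR was 1 over all libraries, 0.776 over all libraries with the block, 0.92 in the 6 libraries without it, and 0.0453 in the 6-library fit with the block. Calcoco1, a coactivator and autophagy receptor 0.702 Mb from Krt8, read 163, 209.7, and 184 CPM against 96.2, 103, and 83.2 CPM, 50.8% of the Krt8+/+ mean. Its adjusted p by edgeR was 0.564 over all libraries, 0.607 with the block over all libraries, 0.0862 in the 6 libraries without it, and 0.0115 in the 6-library fit with the block. Pou6f1, a POU family transcription factor, read 35.0, 25.1, and 32.7 CPM against 19.5, 17.5, and 14.4 CPM, and Prr13 read 71.7, 89.9, and 86.6 CPM against 109, 108, and 129.8 CPM. Neither passed the adjusted threshold in the fit of all libraries or in the 6-library fit with the block, although in both the genotypes were fully separated.

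**Figure D3:**
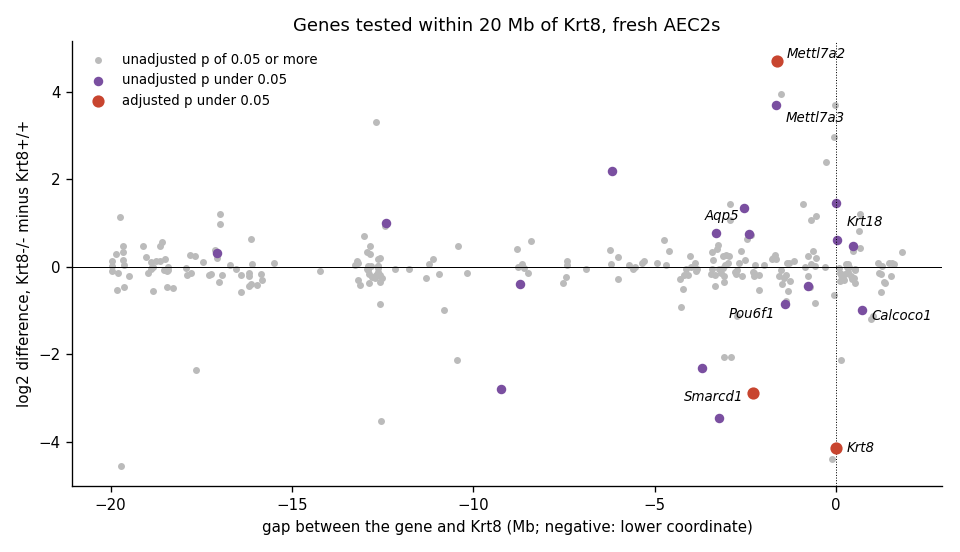
Log2 difference between Krt8-/- and Krt8+/+ AEC2s (vertical axis) for the 271 genes tested within 20 Mb of Krt8 on chromosome 15, by the gap in Mb between the gene and Krt8 (negative toward lower coordinates). Red points passed an adjusted p of 0.05 and purple points an unadjusted p of 0.05, and purple points lie on both sides of 0 within 5 Mb of Krt8.

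Mettl7a2 stands beside 2 near-identical genes, so its change was examined with theirs. Mettl7a3, 1.66 Mb from Krt8, read 0.318, 0.433, and 0.553 CPM in Krt8+/+ and 5.61, 3.24, and 7.88 CPM in Krt8-/- AEC2s (adjusted p by edgeR 0.564 over all libraries, 0.313 with the block over all libraries, 0.117 in the 6 libraries without it, and 0.0208 in the 6-library fit with the block). Mettl7a1, the member with most of the family's counts, read 772, 1093, and 1029 CPM against 1174, 955, and 1155 CPM, and the genotypes overlapped. The coding parts of Mettl7a2 and Mettl7a3 were identical at 99.0% of 732 bases, and those of Mettl7a2 and Mettl7a1 at 94.7%, with 39 mismatches. A stretch of 150 bases that holds 17 of those mismatches is shown to let the members be compared, from GENCODE M21 transcripts (GRCm38) at chr15:100360597-100360746 for Mettl7a2, chr15:100313042-100313191 for Mettl7a1, and chr15:100339271-100339420 for Mettl7a3, all on the plus strand and 5′ to 3′. Capitals mark the bases at which Mettl7a2 and Mettl7a1 differ, and Mettl7a3 is written in lower case because it equals Mettl7a2 throughout.
Mettl7a2: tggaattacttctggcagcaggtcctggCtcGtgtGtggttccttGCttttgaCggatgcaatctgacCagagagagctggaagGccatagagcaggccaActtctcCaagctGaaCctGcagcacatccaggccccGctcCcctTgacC
Mettl7a1: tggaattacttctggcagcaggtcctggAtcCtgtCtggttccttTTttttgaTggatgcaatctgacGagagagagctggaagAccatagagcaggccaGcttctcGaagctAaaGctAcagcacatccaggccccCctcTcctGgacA
Mettl7a3: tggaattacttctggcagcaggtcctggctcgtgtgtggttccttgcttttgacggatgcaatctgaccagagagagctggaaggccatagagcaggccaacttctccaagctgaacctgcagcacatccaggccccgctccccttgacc
With the counts of the 3 genes added together the log2 difference was 0.28 (SE 0.53, unadjusted p = 0.598 by edgeR). In that sum most counts are those of Mettl7a1. How reads were shared out among the copies cannot be checked from a table of counts, and the values of single members are uncertain to that extent. The gene model of Mettl7a2 also overlaps Methig1 on the same strand.

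Genes of airway secretory cells were higher in Krt8-/- isolates. Of 16 genes on a list of club and secretory cell markers, all tested, 11 were higher in all 3 isolations and none was lower, 11 were above Krt8+/+ without overlap, and 7 had an unadjusted p under 0.05, each of them higher. None passed the adjusted threshold over all libraries, and Reg3g passed in the 6-library fit with the block. Over all genes tested 12.1% were higher and 11.9% lower in all 3 isolations, and 3.14% were above without overlap. A higher level with an unadjusted p under 0.05 was found for 1.61%. These shares are the background for the list counts below as well. The median log2 difference of the list was 1.14, against -0.004 over all genes tested. The list's summed level was 6558, 13092, and 7223 CPM in Krt8+/+ and 16337, 16520.1, and 22227 CPM in Krt8-/- isolates, a ratio of 2.49, 1.26, and 3.08 in isolations 1, 2, and 3 and of 2.05 by the means. The ratio was lowest in isolation 2, with the Krt8+/+ library of isolation 2 as the closest to the Krt8-/- libraries.

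Scgb1a1, the club cell secretory protein, made up most of that sum at 3895, 9192, and 4854 CPM in Krt8+/+ and 11351, 11146, and 16356 CPM in Krt8-/- isolates (log2 difference 1.11, SE 0.44, unadjusted p = 0.0201, adjusted p = 1 by edgeR). Scgb3a2, a secretoglobin of the same cells, read 165, 383, and 162 CPM against 460.0, 490.4, and 611 CPM. The separation was wider for secreted defense proteins of the proximal airways. Bpifa1, an antimicrobial and surface-active protein of airway lining fluid, read 93.7, 162, and 21.3 CPM against 865, 845, and 1136 CPM, 10.3-fold by the means (log2 difference 3.36, SE 0.78, unadjusted p = 0.000332, adjusted p = 0.499 by edgeR). Reg3g, a lectin that kills Gram-positive bacteria, read 8.39, 14.7, and 2.66 CPM against 75.0, 77.5, and 63.2 CPM, and its adjusted p by edgeR was 0.564 over all libraries, 0.258 with the block over all libraries, 0.117 in the 6 libraries without it, and 0.0059 in the 6-library fit with the block. In isolation 3 the Krt8+/+ library was the lowest of all for both genes.

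Ltf encodes the iron-binding protein lactoferrin, and it read 28.0, 27.6, and 2.88 CPM in Krt8+/+ against 92.2, 101, and 135 CPM in Krt8-/- isolates. Dmbt1, a secreted scavenger receptor of mucosal surfaces, had no read in any Krt8+/+ library and 9.14, 13, and 8.88 CPM in the Krt8-/- libraries, 370 reads in all. Against a floor of 3 reads over the Krt8+/+ group it was at least 114-fold higher, a bound that covers counting error only. Its adjusted p by edgeR was 0.341 over all libraries and 0.258 with the block over all libraries, against 0.00825 in the 6 libraries without the block and 0.004 with it, and it ranged from 0.000332 to 1 over 15 alternative fits. Its gene model overlaps Fgfr2. Itln1, an intelectin that binds microbial glycans, read 0.763, 1.41, and 0.111 CPM against 4.46, 12.6, and 3.86 CPM (adjusted p by edgeR 0.0497 in the 6-library fit with the block, 0.106 with the block over all libraries, and 1 in the 6 libraries without it). The mucin gene Muc5b read 5.15, 3.03, and 0.443 CPM against 14.5, 17.8, and 5.79 CPM, and Bpifb1, a relative of Bpifa1, read 25.8, 44.2, and 4.21 CPM against 55.6, 101, and 71.8 CPM. For each of these genes the genotypes did not overlap.

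The difference was not shared evenly by the genes of the small airways. Cyp2f2, a cytochrome of club cells that metabolizes foreign compounds, read 1299, 1821, and 1074 CPM against 1941, 2274, and 2239.7 CPM (log2 difference 0.62, unadjusted p = 0.227 by edgeR). The list of 15 markers of ciliated cells, which sit beside club cells, had 3 members higher in all 3 isolations and none lower. Over all genes tested these shares were 12.1% and 11.9%. No ciliated marker had an unadjusted p under 0.05, and the median log2 difference was 0.21. The list summed to 2288, 2506, and 1575 CPM in Krt8+/+ against 2333, 2792, and 1963 CPM in Krt8-/- isolates. Basal cell genes were at the limit of detection. Krt5 was at 0 in 2 Krt8+/+ libraries and at most 1.42 CPM in any other, whereas Krt15, a keratin of basal and some secretory cells, read 1.59, 0.975, and 0.443 CPM against 10.9, 8.10, and 7.65 CPM (adjusted p by edgeR 0.0115 in the 6-library fit with the block, 0.117 in the 6 libraries without it, and 1 over all libraries with or without it). On the list of 19 secreted host defense genes, which shares Scgb1a1, Bpifa1, Reg3g, and Ltf with the airway list, 12 were higher in all 3 isolations and none lower, 5 had an unadjusted p under 0.05, and the median log2 difference was 0.40. Whether these differences reflect the share of airway cells in an isolate was not tested.

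**Figure D4:**
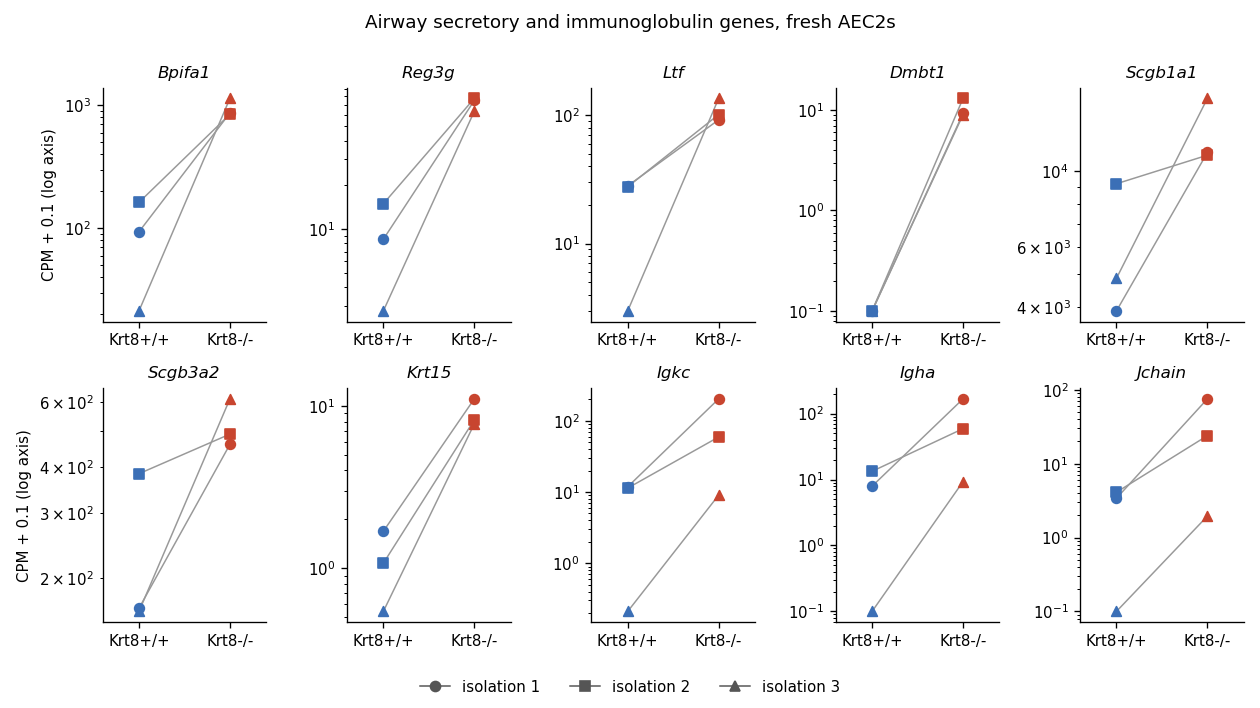
Level in CPM plus 0.1 (log axis, a separate scale for each panel) of 7 airway and 3 immunoglobulin-related genes in fresh Krt8+/+ (blue) and Krt8-/- (red) isolates, with 1 symbol per isolation and lines joining libraries of the same isolation. All 30 lines climb, and the isolations keep apart for Igkc, Igha, and Jchain, with isolation 1 the highest and isolation 3 the lowest among the Krt8-/- libraries.

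Transcripts of antibody-secreting cells were also higher in each Krt8-/- library than in its Krt8+/+ partner. Igkc, the constant region of the kappa light chain, read 11.8, 11.3, and 0.111 CPM in Krt8+/+ and 203, 59.2, and 8.96 CPM in Krt8-/- isolates. Igha, the heavy chain of IgA, read 7.82, 13.2, and 0 CPM against 167, 58.9, and 9.19 CPM, and Jchain, which joins IgA into dimers, read 3.31, 4.01, and 0 CPM against 75.4, 23.9, and 1.85 CPM. Each was higher in all 3 isolations, but the level of a Krt8-/- library in isolation 3 was below that of the Krt8+/+ libraries in isolation 1 or 2 for all 3 genes, so the genotypes overlapped. The adjusted p by edgeR was 0.00984 for Igkc, 0.0433 for Igha, and 0.0115 for Jchain in the 6-library fit with the block. None of them passed in the other fits, with adjusted p = 1 over all libraries and in the 6 libraries without the block for each, and with the block over all libraries 0.964 for Igkc and 1 for Igha and Jchain. Of the 12 genes on the B and plasma cell list 9 were tested. Of these, 4 were higher in all 3 isolations and none lower, against 12.1% and 11.9% of all genes tested. The median log2 difference was 1.70. The list summed to 40.8, 39.3, and 18.8 CPM against 349, 101, and 28.8 CPM. Cd79b, a part of the B cell receptor, did not share the pattern in each isolation, at 14.8, 18.8, and 18.0 CPM against 19.1, 13.9, and 16.1 CPM.

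For most other cell types the sums differed less between the genotypes than between isolations. The fibroblast list of 18 genes summed to 2816, 1628, and 953 CPM in Krt8+/+ and 2115, 2060.4, and 1083 CPM in Krt8-/- isolates, a ratio of 0.974 by the means. Endothelial markers summed to 252, 268, and 232 CPM against 263, 268, and 231 CPM, and without Esam, which makes up most of that sum, the ratio moved from 1.01 to 1.16. Ptprc, which encodes the leukocyte antigen CD45, read 8.84, 2.60, and 0.221 CPM against 8.20, 1.82, and 0.309 CPM. The level of that gene thus differed more between isolations than between genotypes. The pan-leukocyte list summed to 465, 382, and 377 CPM in Krt8+/+ against 488, 386, and 359 CPM in Krt8-/- isolates. The alveolar macrophage list gave 268, 185, and 82.0 CPM against 190.3, 193, and 85.0 CPM. T and NK cell markers were scarce, at 6.42, 6.61, and 1.22 CPM against 4.97, 3.14, and 0.309 CPM, lower in the Krt8-/- library of each isolation. The neutrophil list averaged 23.9 CPM against 112 CPM, but Ltf alone carried this, since without it the ratio was 0.537 and the median log2 difference of its 6 tested genes was -2.18. S100a9 was at 0 in 2 Krt8-/- libraries and Ly6g at 0 in all 6.

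**Figure D5:**
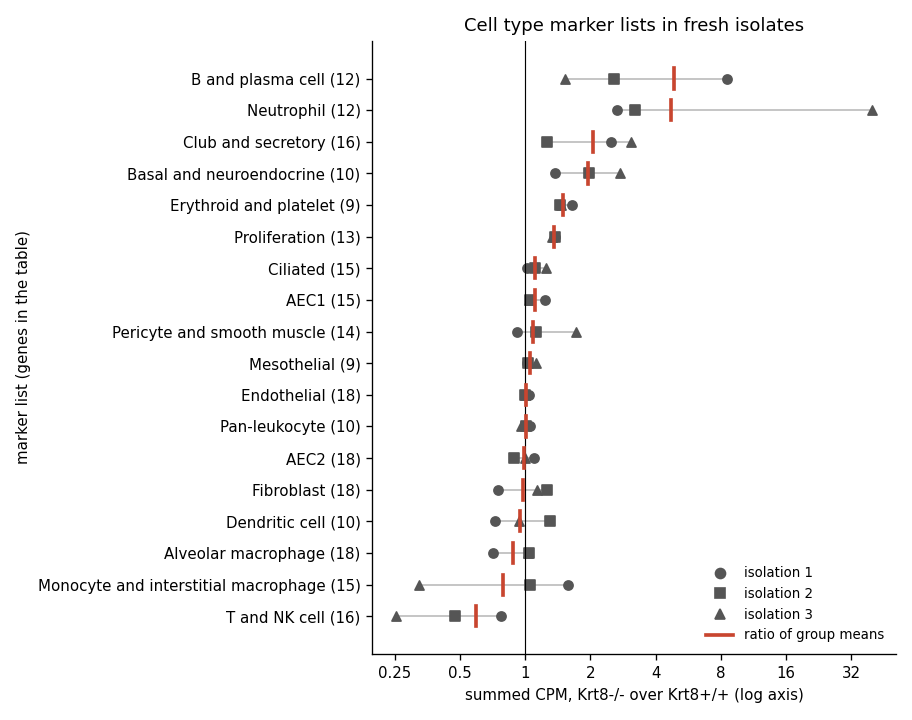
Summed CPM of lists of cell type markers in Krt8-/- over Krt8+/+ isolates (log axis), with symbols for the 3 isolations and a red bar for the ratio of group means. The scarce mast cell and basophil (ratio 0.266) and lymphatic endothelial (ratio 0.831) lists are not drawn. The B and plasma cell, neutrophil, club and secretory, basal, erythroid and platelet, proliferation, ciliated, AEC1, and mesothelial lists are above 1 in each isolation. The neutrophil list is carried by Ltf, the basal list mostly by Krt15 (ratio 1.25 without it), and the AEC1 list mostly by Aqp5. The AEC2, endothelial, fibroblast, and pan-leukocyte lists lie near 1.

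The summed level of AEC2 genes differed by less between the genotypes than between isolations. Of 18 AEC2 markers, all tested, none had an unadjusted p under 0.05, 2 were higher and 5 lower in all 3 isolations, and the median log2 difference was -0.08. Summed, they gave 263230, 340018, and 352763 CPM against 290027, 300676, and 352405 CPM, a ratio of 0.987 by the means. Lamp3, a membrane protein of lamellar bodies, read 4883, 4707, and 4838 CPM against 4556, 4729.8, and 3703 CPM (log2 difference -0.15, SE 0.67). Etv5, a transcription factor that maintains AEC2 identity, read 1776, 1754, and 1898 CPM against 1748, 1738, and 1454 CPM (log2 difference -0.14, SE 0.54), and Nkx2-1, which specifies lung epithelium, gave a log2 difference of -0.11 (SE 0.19). These standard errors rest on the spread pooled over day 0 and the culture days, and not on the fresh isolates alone. With standard errors of the size seen for Lamp3 and Etv5, small changes in such AEC2 genes were not detectable in this fit.

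On the list of 23 tested surfactant and lamellar body genes, 1 was higher and 5 lower in all 3 isolations and no unadjusted p was under 0.05. The 16 AEC2 transcription factors had 1 unadjusted p under 0.05 (Sox9, higher). The 8 tested MHC class II genes, which AEC2s express, had none, but 4 were higher in all 3 isolations and none lower. Over all genes tested these shares were 12.1% and 11.9%. The MHC class II list summed to a Krt8-/- to Krt8+/+ ratio of 1.25, 1.04, and 1.11 in isolations 1, 2, and 3. Transcripts encoded by the mitochondrial genome had a median log2 difference of -0.16. Summed, they were at a Krt8-/- to Krt8+/+ ratio of 0.959, 0.744, and 1.02 in isolations 1, 2, and 3. Of the 15, 5 were lower in all 3 isolations and 3 below without overlap, against 11.9% and 3.74% of all genes tested. One of these was mt-Co1, a subunit of cytochrome c oxidase, at 4871, 5086, and 4961 CPM against 4587, 3934, and 4542 CPM (log2 difference -0.19, SE 0.34). The median log2 difference was -0.01 for 26 tested chemokines, -0.05 for 24 cytokines and mediators, 0.08 for 25 immediate early genes, 0.18 for 19 heat shock chaperones, 0.01 for 23 genes of the unfolded protein response, 0.12 for 28 interferon-stimulated genes, and -0.03 for 22 p53 targets. Of these 7 lists, the interferon-stimulated genes had 2 and the p53 targets 1 unadjusted p under 0.05, each higher, and the others had none.

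Keratins other than Krt8 were measured as the partners and relatives of the missing protein. Krt7, the other simple-epithelial type II keratin, read 179, 199, and 181 CPM in Krt8+/+ and 203, 228, and 208 CPM in Krt8-/- AEC2s (log2 difference 0.19, SE 0.23), and the summed type II keratins were at a ratio of 0.367, Krt8 included. Type I keratins summed to 712, 849, and 811 CPM against 917, 916, and 918 CPM, with Krt18 as the member that differed most in level. Krt19 read 175, 199.6, and 161 CPM against 188, 187, and 159.9 CPM. Of 21 tested genes for plakins, desmosomal proteins, and other keratin partners, none had an unadjusted p under 0.05, and their median log2 difference was -0.01.

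No marker of AEC1s or of the transitional state passed the adjusted threshold over all libraries, and Aqp5 passed in the 6-library fit with the block. On the AEC1 list of 15 genes, 7 were higher in all 3 isolations and none lower, against 12.1% and 11.9% of all genes tested. The median log2 difference was 0.21. An unadjusted p under 0.05 was found for 5, all higher, against 1.61% of all genes tested. Besides Aqp5 these were Hopx, a homeodomain protein of AEC1s, at 47.9, 46.7, and 35.1 CPM against 82.4, 52.7, and 57.3 CPM, Pdpn, which encodes podoplanin, at 4.58, 2.60, and 2.21 CPM against 10.1, 5.06, and 5.25 CPM, Sema3a, and Igfbp2. The groups did not overlap for Hopx, Pdpn, and Sema3a. The list's summed level was 1.10 times that of Krt8+/+ isolates, with means of 5167 CPM in Krt8+/+ and 5708 CPM in Krt8-/- isolates. Aqp5 made up most of that rise, and the rest of the list was not higher in every isolation. On the list of 21 transitional state genes 8 were higher in all 3 isolations and none lower, and Krt18 alone had an unadjusted p under 0.05. Areg, an epidermal growth factor ligand, read 39.8, 50.3, and 69.0 CPM against 124, 75.0, and 49.7 CPM, higher in isolations 1 and 2 and lower in isolation 3. Lgals3, which encodes galectin 3, read 134, 171, and 164 CPM against 184, 182, and 198 CPM.

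Cell cycle genes were low in all fresh isolates. Of 13 proliferation genes 7 were higher in all 3 isolations and none lower, against 12.1% and 11.9% of all genes tested. An unadjusted p under 0.05 was found for 5, all higher, against 1.61% of all genes tested. The median log2 difference of the 13 genes was 0.80. Their sum was 97.9, 130.0, and 119 CPM in Krt8+/+ and 134, 179, and 157 CPM in Krt8-/- isolates, with ratios of 1.32 to 1.38 in the 3 isolations. Top2a, the topoisomerase of dividing cells, read 3.37, 6.39, and 5.09 CPM against 7.99, 12.6, and 8.50 CPM, and Mki67 read 1.08, 4.12, and 4.21 CPM against 8.20, 7.19, and 3.55 CPM, where the genotypes overlapped. Mcm5, a subunit of the replicative helicase, read 8.46, 10.8, and 11.4 CPM against 11.9, 22.3, and 19.3 CPM. E2f1, a transcription factor of the G1 to S transition, read 1.53, 1.41, and 2.66 CPM against 3.24, 5.16, and 4.25 CPM (log2 difference 1.19, SE 0.32, unadjusted p = 0.00152, adjusted p = 0.864 by edgeR). Mtbp, which takes part in the firing of replication origins, read 2.03, 1.62, and 2.77 CPM against 4.68, 6.99, and 5.25 CPM. Its adjusted p by edgeR was 0.224 over all libraries, 0.0907 with the block over all libraries, and 0.597 in the 6-library fit with the block. By DESeq2 it was 0.024, and that was the only 1 of 15 alternative fits in which Mtbp passed. None of the 13 genes passed the adjusted threshold in the fit of all libraries or in the 6-library fit with the block.

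The genes with the next smallest p values were few in number and mostly low in level. Adh7, an alcohol dehydrogenase that oxidizes retinol, was 2.76-fold, the channel gene Panx1 1.68-fold, and the BMP receptor gene Bmpr1b 2.33-fold the Krt8+/+ mean, with adjusted p values of 0.379, 0.499, and 0.864 by edgeR. Others were the predicted genes or pseudogenes Gm4654, Gm9619, Gm47021, and Gm5855, which were higher, and Gm42979, Gm38190, and E230020D15Rik, which were lower, in all 3 isolations, with adjusted p values of 0.564 to 0.864 by edgeR. None of these 7 exceeded 7.26 CPM in any library.

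Whether a difference belonged to the fresh cells was tested as the genotype difference on day 0 minus its mean over days 1, 3, and 7, 2 sets that share no library. In that test 3 of 18046 genes passed (0.0166%), Krt8, Krt8-ps, and Chtf18, and 492 (2.73%) had an unadjusted p under 0.05. Day 0 and culture libraries share isolation dates, and 1 gene passed with the isolation as a block over all libraries, while 0, 1, and 1 passed without isolation 1, 2, or 3. On each of days 1, 3, and 7, 3 genes passed between the genotypes (0.0166%), Krt8, Krt8-ps, and Smarcd1 every time. The smaller fall of Krt8 on day 0 came with a change in the Krt8+/+ level. Krt8+/+ cells averaged 523 CPM on day 0 and 3208, 3269, and 4030 CPM on days 1, 3, and 7, while Krt8-/- cells averaged 29.6 CPM and then 38.2, 30.3, and 30.2 CPM. Chtf18 went from a mean of 0.225 CPM on day 0 to 3.86, 17.3, and 12.4 CPM in Krt8+/+ cells, and from 1.69 to 4.38, 15.9, and 10.9 CPM in Krt8-/- cells, so the genotypes were apart before culture and differed by 0.18, -0.12, and -0.19 on the log2 scale afterwards.

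Among the genes near Krt8, the log2 difference of Smarcd1 was -2.87 on day 0 and -2.47, -3.17, and -2.84 on days 1, 3, and 7, and that of Mettl7a2 was 4.70 and then 4.43, 6.62, and 3.12. Krt18 differed by 0.62 on day 0 and by -0.11, 0.08, and -0.67 in culture (difference unadjusted p = 0.0047, adjusted p = 1 by edgeR). The airway genes faded with culture in both genotypes. The club and secretory list summed to 9539 CPM in Krt8+/+ and 9474 CPM in Krt8-/- cells on day 1, to 887 and 1026 CPM on day 3, and to 16.4 and 18.1 CPM on day 7. For Scgb1a1 the log2 difference was 1.11 on day 0 and -0.07, 0.18, and 0.11 later, with an unadjusted p of 0.054 and an adjusted p of 1 for the change. For Bpifa1 it was 3.36 on day 0 and 4.50, 1.92, and -0.89 later, and the gene passed the adjusted threshold on none of these days. Its values of days 3 and 7 belong to the days on which the list's sums had fallen. For the B and plasma cell list the Krt8+/+ and Krt8-/- sums were 12.0 and 52.5 CPM on day 1 and 1.74 and 2.75 CPM on day 3.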

How the data were processed

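Libraries of both genotypes carried 3 dates, read here as dates of isolation, and RNA was prepared with the RNeasy Micro kit. The authors deposited raw read counts per gene for 24 libraries, without normalization, with 55421 Ensembl identifiers and 5 reporter entries that hold 0 counts. The submitters' processing notes name cutadapt 2.3, STAR 2.7.8a, RSEM 1.3.3, and GRCm38, with no role or order. The sources used here do not give the annotation, strand setting, or treatment of reads that fit several genes. Symbols and coordinates came from GENCODE M21, which named 55240 identifiers.

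Analyses used R 4.3.3 with edgeR 4.0.16 and DESeq2 1.42.0. Genes were kept by filterByExpr (minimum count 10, minimum total 15), TMM factors set the library scale, and all 24 libraries entered 1 quasi-likelihood fit of 8 groups (16 residual degrees of freedom). Genes passed at a Benjamini-Hochberg adjusted p under 0.05. Pairs of libraries share a date in the labels, read here as that of isolation. Deviations of the 2 day 0 libraries of isolations 1, 2, and 3 from their group means correlated at 0.363, 0.0573, and 0.439. Those of a Krt8+/+ and a Krt8-/- library of different isolations correlated at -0.481 to 0.242. Fits with the isolation as a block were planned as alternatives. Totals on day 0 were 12065192 to 19483386 counts, so counting error limits genes of a few reads. The procedure was tested on simulated data.

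Named genes were Krt8, those past 0.05 with 1 CPM in a group and the same direction in 3 isolations, then those of smallest p up to 25 genes, then the 4 most abundant members of each list and members past 0.05. Bpifb1, Muc5b, Scgb3a2, Mki67, Hopx, Pdpn, Sema3a, Igfbp2, Areg, Lgals3, Lamp3, Krt5, Ly6g, Sox9, Mettl7a1, Pou6f1, and Prr13 fall outside that rule and were chosen after their values were seen. The comparison and the lists were chosen with earlier results of these data known, and lists carry no test. Adding up the counts of near-identical genes was chosen after seeing the data. The culture libraries served only the shared spread and the comparison with day 0. Some results that the rule names are not reported here.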

Additional observations from a re-analysis of the deposited data

Results flagged for a closer look

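For 3 genes the genotype difference on day 0 departed from that in culture, by the test of the day 0 difference minus the mean of those on days 1, 3, and 7 (edgeR, Benjamini-Hochberg). For Krt8 the change was 2.59 on the log2 scale (SE 0.255, adjusted p = 3.595e-05), and for its pseudogene Krt8-ps it was 2.578 (SE 0.427, adjusted p = 0.0375). For both, the Krt8-/- cells were closer to Krt8+/+ cells on day 0 than in culture. For Chtf18 the change was 2.99 (SE 0.478, adjusted p = 0.0346), with the genotypes apart on day 0. It rests on 7 reads in the Krt8+/+ libraries of day 0. With the isolation as a block over all libraries 1 gene passed in place of 3, and without isolation 1, 2, or 3 the counts were 0, 1, and 1.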

How the results depend on the processing

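The count of genes past 0.05 between the genotypes on day 0 was 5. It was 9 by the DESeq2 test, 10 with no filter on low counts, 14 with the isolation as a replicate block in the 6 day 0 libraries alone, 5 with the block over all 24 libraries, and 3 with near-identical genes added up, and it ranged from 2 to 5 when libraries or isolations were left out. The count for the difference between day 0 and culture was 3, against 1 with the replicate block over all libraries, and ranged from 0 to 1 when isolations were left out. Krt8 kept its direction and its call in all 15 alternatives, from -4.38 to -3.94 on the log2 scale. Mettl7a1, which had no call, turned from 0.18 to -0.0081 without isolation 1, and ranged from -0.0081 to 0.361 when libraries or isolations were left out. The cause was not tested. Genes with a few reads, such as Chtf18, are limited by depth.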
